A study of Rhinolophus ferrumequinum with 8 samples.

Results

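Spleens of winter active greater horseshoe bats (Rhinolophus ferrumequinum) were compared with spleens of summer active bats, the seasonal comparison between both active states of the study. The comparison used 4 of the 8 RNA-seq libraries of the study and 13542 of the 19652 genes in its table, those that averaged 1 or more over the 8 libraries. All bats were wild females, and RNA came from the whole organ. Winter active bats were taken in November and had spent 26 h since capture. Torpid bats were sampled in November, arousal bats in November 2 h after capture, and summer active bats in July. Each state had 2 libraries, which the labels call biological replicates. Season and the 26 h since capture go together in this comparison and cannot be told apart. Levels are TPM, a transcript abundance corrected for transcript length, which the authors rescaled between libraries. Differences are winter active minus summer active on the log2(level + 1) scale, which understates the change of genes near 0. A gene was called higher or lower at a Benjamini-Hochberg adjusted p under 0.05 in limma, over all 13542 genes, in a fit of all 8 libraries.

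The spleen filters blood, recycles the iron of worn red cells in macrophages, and holds B and T cell zones in which antibody responses start. In several small mammals it also makes red cells, a process in which dividing erythroid precursors load hemoglobin, build a spectrin-based membrane skeleton and finally lose the nucleus. Transcripts of globins, heme enzymes and red cell membrane proteins therefore come mainly from precursors and from young red cells that still hold RNA. In whole tissue, fewer cells of a type and less RNA per cell cannot be told apart.

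Spleen markers were present in all 4 libraries. CD79A, a signalling chain of the B cell receptor, was at 448 and 338 in winter active bats, against 760 and 1071 in summer active bats. SPIC, a regulator of red pulp macrophages, was at 484 and 626 in winter, against 541 and 144 in summer, and the spleen patterning factor TLX1 was at 46.0 and 39.1, against 35.4 and 15.4. The replicates of a state were unequally alike. Winter active libraries differed from each other by a root mean square of 0.569 log2 units (Pearson r over genes 0.959), and summer active libraries by 0.843 (r = 0.915). Summer active 1 lay nearer to winter active 1 (0.703) than to summer active 2. Transcripts of neighbouring organs also differed between libraries of 1 state. GKN1, a gene of the stomach lining, had a level of 666 in winter active 2 and was listed at 0 in the other 3 libraries. The liver gene ALB was at 29.5 and 18.6 in winter, against 1077 and 9.78 in summer, and the squamous keratin KRT4 was at 1.21 and 0.119, against 0.318 and 1617. The part that such transcripts had in the results was not tested, and none of the 61 tested members of the 5 other-organ lists was called.

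In all, 140 genes passed the test (1.03% of those tested). Of these, 19 were higher in winter active spleen (0.14%) and 121 were lower (0.894%). The called rises had a median of 1.57 log2 units and the called falls a median of -2.30. All 140 called genes had both winter libraries on 1 side of both summer libraries, a separation that 3689 genes (27.2%) showed upward and 2963 genes (21.9%) downward. At an unadjusted p under 0.05 the directions were nearly even, with 1067 genes higher (7.88%) and 943 lower (6.96%), and the median difference over all genes was 0.046. The number of calls rested on single libraries. It was 46 without winter active 1, 15 without winter active 2, 374 without summer active 1 and 30 without summer active 2. Leaving out 1 torpor library gave 65 and leaving out 1 arousal library gave 70, and the 4 compared libraries alone gave 32. No called gene changed direction in any of these fits, which was fixed in advance. With both winter libraries on 1 side of both summer libraries, leaving out a library could not turn a called gene. Of the 121 called falls, 22 passed the filter on low levels only through their summer values, as did 225 of all genes tested. Such genes had to average lower over the November libraries than over the summer libraries, which favours a difference in this direction. With each column rescaled to a total of 1000000 the median of all genes moved to 0.553, and 662 genes were called higher and 117 lower.

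**Figure D1:**
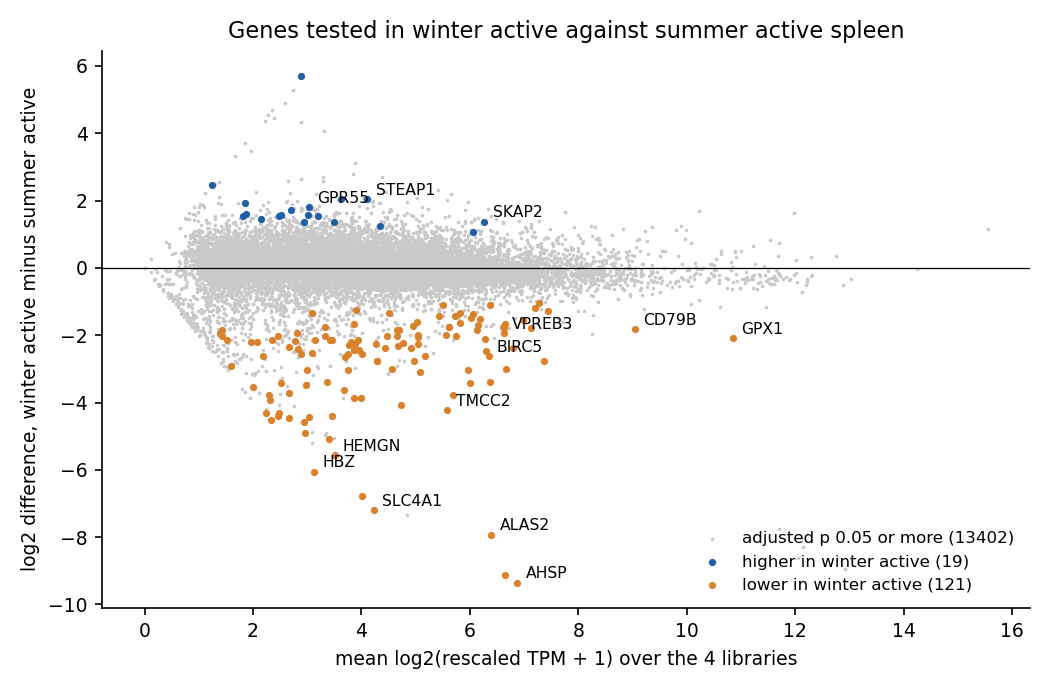
Log2 difference (winter active minus summer active, vertical axis) against the mean log2(rescaled TPM + 1) over the 4 libraries (horizontal axis) for the 13542 genes tested, 1 point per gene. The 121 genes called lower in winter active spleen (orange) reach differences beyond -9, led by AHSP, whereas the 19 genes called higher (blue) mostly lie between 1 and 2.

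Red cell genes held the largest falls. Of 57 genes in 4 lists of erythroid genes (globins, heme synthesis, membrane and skeleton, regulators), 48 were in the table under these symbols and all 48 were tested. Of the 48, 27 fell and none rose, which is 56.2% lower against 0.894% of all genes. In 43 of the 48 (89.6%, against 21.9% of all genes) both winter libraries were below both summer libraries, and the median difference was -2.31. The summed level of the lists was 1434 and 1247 in winter active spleens, against 8753 and 12985 in summer active spleens. A group of 10 called members passed the filter on low levels only through their summer values, as did 225 of all genes tested. As said above, that favours a difference in this direction. The 27 calls became 12 without winter active 1, 10 without winter active 2, 29 without summer active 1 and 12 without summer active 2. They numbered 21 without either torpor library and 18 without either arousal library.

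All 4 tested genes of the globins and their chaperone fell, and AHSP and HBM had the largest differences of the called genes. AHSP, which binds free alpha-globin until it is built into hemoglobin (NCBI gene 117019823), was at 7.21 and 1.56 in winter active bats, against 2514 and 3548 in summer active bats (log2 difference -9.35, SE 0.62, adjusted p = 0.00236). The alpha-like globin HBM (117019390) was at 17.0 and 0 in winter, against 1765 and 3151 in summer (-9.12, SE 1.15, adjusted p = 0.0192). HBZ, which encodes an embryonic alpha-like globin (117019389), was at 0.155 and 0 in winter, against 72.8 and 68.0 in summer (-6.05, SE 0.27, adjusted p = 0.000786, the smallest of all genes). HBQ1 was at 0.084 and 0.0286 in winter, against 22.1 and 24.6 in summer (-4.52, adjusted p = 0.00236). For each of these 4 genes the lower summer library exceeded the higher winter library by a wide margin, while the winter libraries of HBM stood far apart. HBZ and HBQ1 passed the filter on low levels only through their summer values. That filter was not applied again in the fits that left out 1 library. HBM lost its call without summer active 2 (adjusted p = 0.16) and without either torpor library (0.0534), whereas AHSP, HBZ and HBQ1 kept theirs in all 8 fits that left out 1 library.

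Among loci that carry a locus number in place of a symbol, the 4 with the highest mean over the summer libraries are given here. They were singled out after their values were seen, and a choice by summer level favours loci that are lower in winter. LOC117030459 was at 2166 and 54.7 in winter active bats, against 157267 and 187703 in summer active bats, and did not pass the test (log2 difference -8.95, SE 1.68, adjusted p = 0.0688). Its neighbour LOC117030460 was at 1427 and 31.3 in winter, against 81336 and 87467 in summer (adjusted p = 0.0912). LOC117019384 was at 1779 and 36.1, against 84149 and 77165 (adjusted p = 0.111), and LOC117019380 at 1634 and 30.1, against 59398 and 40710 (adjusted p = 0.145). The RefSeq annotation of the species places the last pair between HBM and HBQ1. Winter active 1 was above winter active 2 at all 4 loci, and both winter libraries were below both summer libraries. Together the 4 loci made up 0.754% and 0.0184% of the winter active columns, against 29.9% and 29.5% of the summer active columns. The next locus by summer mean, LOC117023829, was at 22103 and 16845 in winter, against 21426 and 17820 in summer. Near-identical gene copies can share reads, so the split between neighbouring loci is uncertain.

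Heme synthesis genes fell along most of the pathway. Of 12 members tested, 8 were called lower (66.7%, against 0.894% of all genes). In 11 both winter libraries were below both summer libraries (91.7%, against 21.9% of all genes), with a list median of -1.92. ALAS2, the erythroid enzyme of the first step, was at 23.0 and 0.218 in winter active spleens, against 1185 and 1450 in summer active spleens (log2 difference -7.92, SE 1.17, adjusted p = 0.0336). FECH, which inserts iron in the last step, was at 27.6 and 35.4, against 85.6 and 114 (-1.63, SE 0.25, adjusted p = 0.0349). Between these, UROS, UROD and CPOX differed by -2.06, -1.79 and -2.37 (adjusted p = 0.0188, 0.0131 and 0.0353). The mitochondrial iron importer SLC25A37 was at 16.4 and 10.3 in winter, against 176 and 205 in summer (-3.77, SE 0.26, adjusted p = 0.00236). TSPO2, an erythroid membrane protein of the translocator family, was at 0.424 and 0 in winter, against 11.6 and 49.7 in summer (-4.40, SE 0.64, adjusted p = 0.0317). ALAS2 kept the call without either winter active library and lost it in each of the 6 fits without another library (adjusted p = 0.0549 to 0.211). SLC25A37 kept its call in each of the 8 fits, and the count of heme genes called was 3 without either winter active library, 8 without summer active 1 and 2 without summer active 2.

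**Figure D2:**
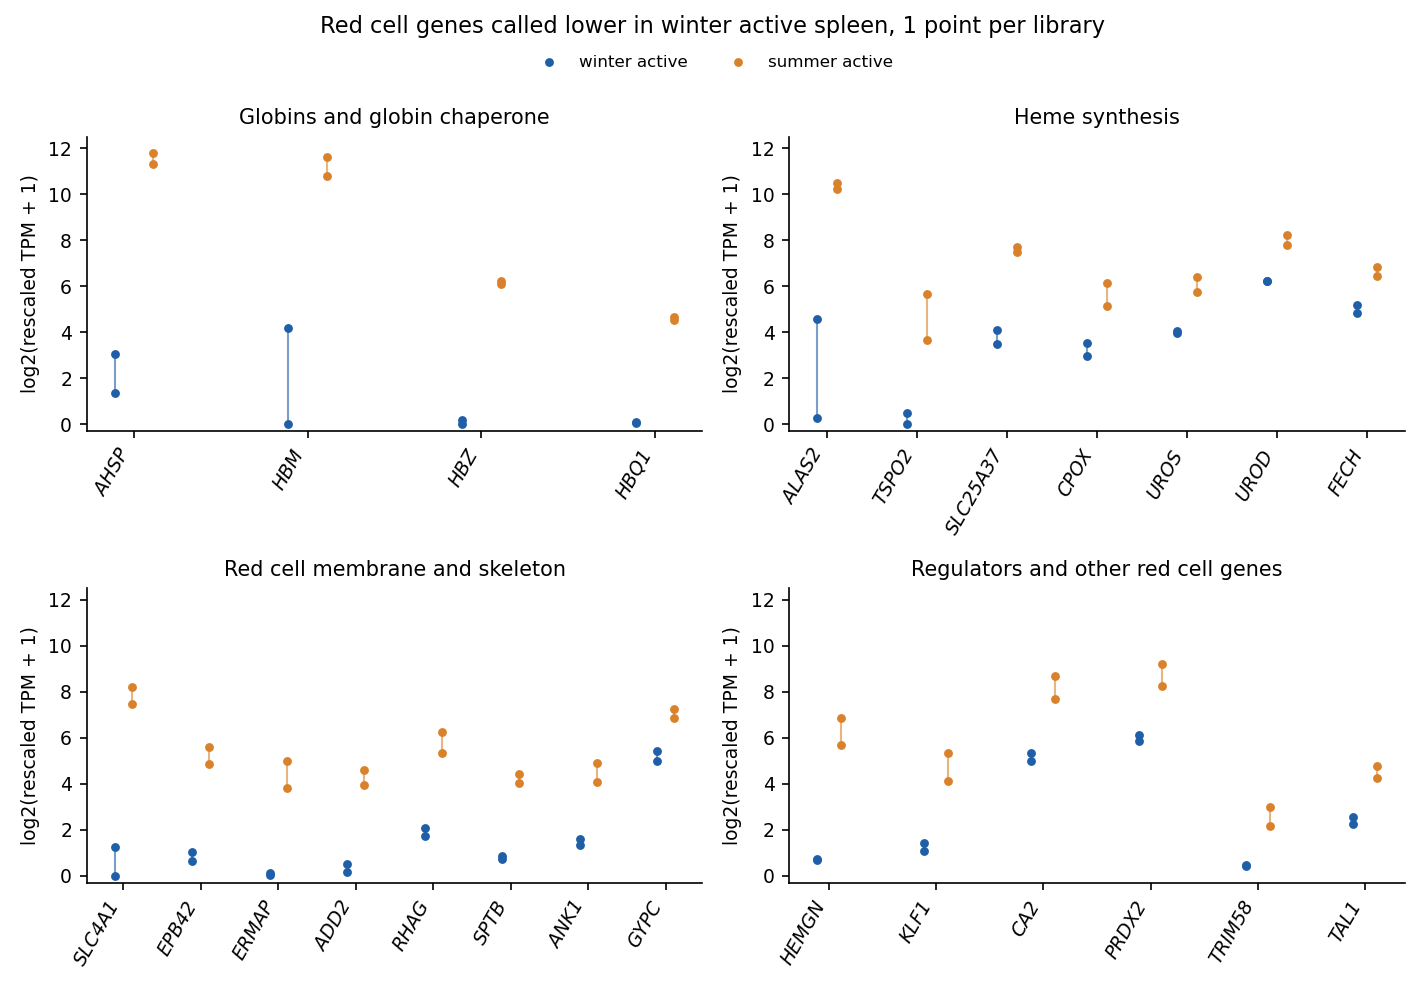
Level in each library as log2(rescaled TPM + 1) for 25 of the 27 erythroid genes called lower, in 4 panels by role, with winter active libraries in blue to the left of summer active libraries in orange and a line joining the replicates. In each of the 25 genes the blue points lie below the orange points. The winter replicates stand furthest apart for ALAS2 and HBM.

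The red cell membrane and its skeleton showed the same direction in every member tested. In 16 of 16 both winter libraries were below both summer libraries, against 21.9% of all genes. Of the 16, 9 were called lower (56.2%, against 0.894% of all genes), and the list median was -2.78. A group of 6 members passed the filter on low levels only through their summer values, and all 6 were among the called. SLC4A1, the chloride and bicarbonate exchanger that anchors the skeleton to the membrane (117013589), was at 1.39 and 0.0107 in winter active bats, against 174 and 296 in summer active bats (log2 difference -7.20, SE 0.44, adjusted p = 0.00236). EPB42, which links this exchanger to ankyrin, was at 1.04 and 0.547 in winter, against 28.3 and 48.3 in summer (-4.42, SE 0.33, adjusted p = 0.00257). SPTB, a spectrin chain of the meshwork, fell by 3.43 on the log2 scale (adjusted p = 0.00364). ANK1, the ankyrin of red cells, was at 1.55 and 2.07 in winter, against 16.1 and 29.2 in summer (-3.02, adjusted p = 0.0188). ADD2, an adducin that caps the actin filaments of the meshwork, and the Rh-associated glycoprotein RHAG differed by -3.91 and -3.87 (adjusted p = 0.0115 and 0.0131). ERMAP, a surface protein that carries a blood group antigen, was at 0.0898 and 0.0304 in winter, against 13.1 and 30.8 in summer (-4.32, SE 0.43, adjusted p = 0.00831). GYPC, a glycophorin, had the smallest called fall of the list, with 42.5 and 30.5 in winter, against 115 and 151 in summer (-1.84, adjusted p = 0.0235). Without single libraries the 9 calls became 4 (winter active 1), 2 (winter active 2), 10 (summer active 1) and 5 (summer active 2).

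Among 16 regulators and other erythroid genes, 6 were called lower (37.5%, against 0.894% of all genes). In 12 both winter libraries were below both summer libraries (75%, against 21.9% of all genes), and the list median was -2.13. HEMGN, a nuclear protein of erythroid precursors (117032538), was at 0.686 and 0.615 in winter active bats, against 51.0 and 116 in summer active bats (log2 difference -5.57, SE 0.41, adjusted p = 0.00257). The erythroid transcription factor KLF1 was at 1.68 and 1.10 in winter, against 16.5 and 39.1 in summer (-3.48, SE 0.55, adjusted p = 0.0403). TAL1, which acts earlier and in a complex with GATA1, was at 4.91 and 3.73 in winter, against 18.3 and 26.7 in summer (-2.13, SE 0.31, adjusted p = 0.0342). In all 6 called members summer active 2 was the higher of the summer libraries. CA2, a carbonic anhydrase, was at 39.6 and 30.6 in winter, against 204 and 407 in summer (-3.01, adjusted p = 0.0403). PRDX2, the peroxiredoxin that is abundant in red cells, was at 68.7 and 56.6, against 305 and 595 (-2.75, adjusted p = 0.0131). TRIM58, a ubiquitin ligase of late precursors, was at 0.353 and 0.404, against 3.54 and 7.01 (-2.13, adjusted p = 0.0457). TFRC, the receptor through which precursors take up transferrin iron, did not pass the test, with 12.6 and 15.4 in winter and 43.7 and 112 in summer (-2.25, adjusted p = 0.065). HEMGN was the 1 member still called without winter active 1 and again without winter active 2, and 7 and 2 members were called without summer active 1 and summer active 2.

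Further genes among the 15 largest falls lie outside the lists. TMCC2, an endoplasmic reticulum membrane protein (117014486), was at 13.7 and 7.30 in winter active bats, against 203 and 212 in summer active bats (log2 difference -4.24, SE 0.32, adjusted p = 0.00257). The cell cycle transcription factor E2F2 (117027190) was at 6.49 and 4.54 in winter, against 94.8 and 121 in summer (-4.07, SE 0.32, adjusted p = 0.00293). YPEL4 was at 0.347 and 0.355, against 25.9 and 31.6 (-4.45, SE 0.26, adjusted p = 0.00236). The states did not overlap in these 3 genes. Over the 18 other settings the difference stayed between -4.65 and -3.68 for TMCC2 and between -5.99 and -4.03 for YPEL4. YPEL4 and RHCE, given next, passed the filter on low levels only through their summer values. RHCE, a blood group gene of the Rh family, was at 0.469 and 0.657 in winter, against 24.5 and 53.8 in summer (-4.58, adjusted p = 0.00364). FN3K, which removes sugar from glycated proteins, was at 1.95 and 0.919, against 34.6 and 69.9 (-4.40, adjusted p = 0.0147). Of the 15 largest falls, 3 lost the call without winter active 1 (adjusted p = 0.0594 to 0.142), 5 without winter active 2 (0.0513 to 0.283) and 4 without summer active 2 (0.0716 to 0.211).

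Of the 121 genes called lower, 48 were in a list and 73 in none, 62 of them with a symbol. Several of these have textbook roles in red cells and are named here after their values were seen. BPGM makes the phosphoglycerate that lowers the oxygen affinity of hemoglobin. It was at 16.6 and 11.1 in winter active bats, against 65.4 and 119 in summer active bats (log2 difference -2.61, adjusted p = 0.0197). GLRX5, needed for iron-sulfur cluster assembly, was at 45.9 and 50.1, against 232 and 274 (-2.37, adjusted p = 0.00582). EIF2AK1, the kinase that slows translation when heme is short, was at 35.9 and 41.0, against 109 and 148 (-1.70, adjusted p = 0.0161). SLC25A39, a mitochondrial carrier of glutathione, was at 81.1 and 64.8, against 203 and 226 (-1.55, adjusted p = 0.0172). BCL2L1, whose product protects late precursors from cell death, was at 43.2 and 38.3, against 118 and 94.7 (-1.36, adjusted p = 0.0342). In all 5 the winter libraries were below the summer libraries.

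Of 36 mitosis genes tested, 15 fell (41.7%, against 0.894% of all genes) and none rose. In 35 of the 36 both winter libraries were below both summer libraries (97.2%, against 21.9% of all genes), and the median was -2.00. Their summed level was 237 and 212 in winter active spleens, against 758 and 1394 in summer active spleens. BIRC5, the survivin subunit of the complex that corrects chromosome attachment (117014004), was at 37.5 and 27.1 in winter, against 151 and 265 in summer (log2 difference -2.61, SE 0.29, adjusted p = 0.0131). AURKB, the kinase of the same complex, was at 5.85 and 5.52, against 29.9 and 41.9 (-2.45, SE 0.30, adjusted p = 0.0172). Cyclin CCNB1 and its kinase CDK1 drive entry into mitosis. CCNB1 was at 14.9 and 13.02 in winter, against 54.6 and 92.2 in summer (-2.27, adjusted p = 0.0226), and CDK1 at 12.1 and 11.1, against 37.9 and 88.8 (-2.23, adjusted p = 0.0454). The other 11 called members (DLGAP5, CENPA, CCNB2, TPX2, CDC20, KIF4A, KIF23, KIF11, PLK1, BUB1 and NUF2) are spindle motors, kinetochore and checkpoint proteins and regulators, with differences between -2.66 and -1.68. In each called gene the summer libraries stood further apart than the winter libraries on the level scale, with summer active 2 the higher. The proliferation marker MKI67 did not pass, with 6.13 and 4.65 in winter and 19.4 and 31.7 in summer (-2.02, adjusted p = 0.147).

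The mitosis calls rested on single libraries: none of the 36 was called without winter active 1 or without winter active 2, 1 was called without summer active 2 and 26 without summer active 1. Without a torpor library 2 were called and without an arousal library 5, and 0 in the 4 compared libraries alone. The median of the list stayed between -2.362 and -1.603 in the 8 fits that left out 1 library. Genes of DNA replication and S phase differed less. Of 32 tested none passed in limma, while 24 were lower at an unadjusted p under 0.05, against 6.96% of all genes. In 26 both winter libraries were below both summer libraries (81.2%, against 21.9% of all genes), and the list median was -1.0. RRM2, which makes deoxynucleotides, was at 15.9 and 15.4 in winter, against 64.6 and 140 in summer (log2 difference -2.53, adjusted p = 0.0567). E2F1 was at 3.61 and 1.92, against 11.7 and 19.1 (-2.13, adjusted p = 0.0712), and the thymidine kinase TK1 at 12.9 and 9.19, against 26.0 and 48.4 (-1.62, adjusted p = 0.0912). Erythroid precursors and germinal centre B cells both divide, so which cells carried these transcripts cannot be told apart in whole tissue.

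**Figure D3:**
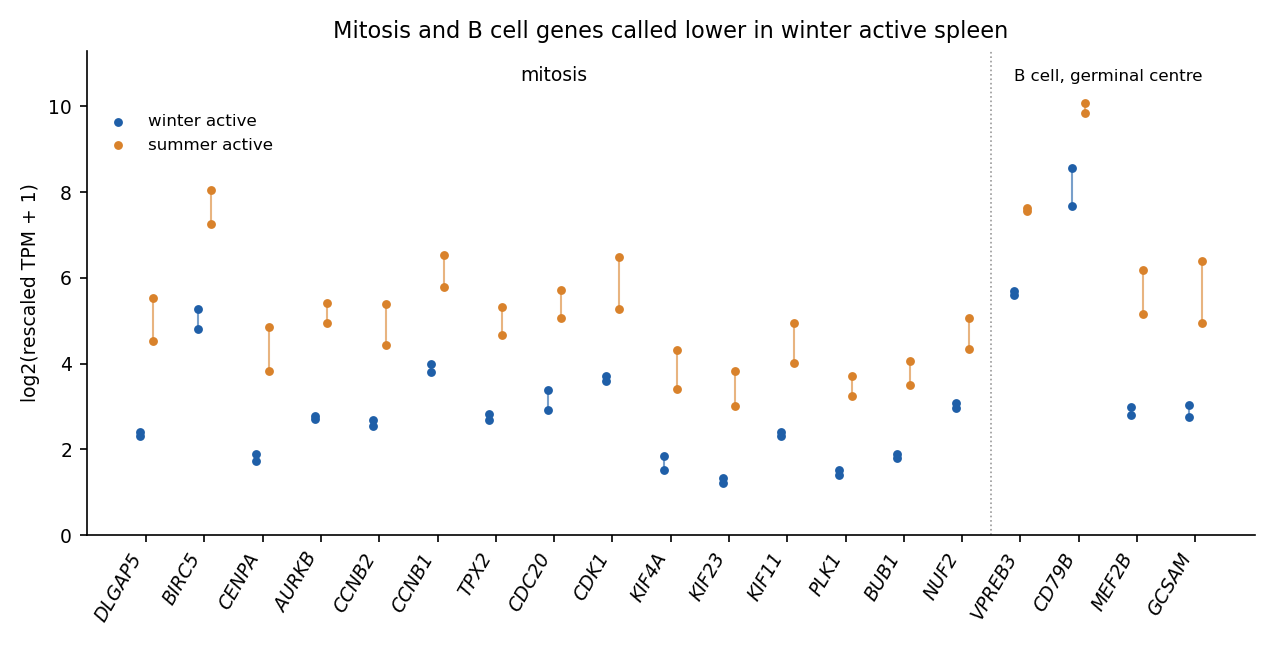
Level in each library as log2(rescaled TPM + 1) for the 15 mitosis genes (left of the dotted line) and the 4 B cell or germinal centre genes (right) called lower, with winter active libraries in blue left of summer active libraries in orange. Winter replicates nearly coincide in the mitosis genes, and the summer replicates stand apart in most of them. All blue points of a gene lie below its orange points.

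B cell genes were lower in part. Of 20 tested, 2 fell (10%, against 0.894% of all genes) and none rose. In 11 both winter libraries were below both summer libraries (55%, against 21.9% of all genes). Their median of -0.79 was -1.23 without summer active 1 and -0.27 without summer active 2. VPREB3, a chaperone of the pre-B and B cell receptor (117017614), was at 51.1 and 47.5 in winter active bats, against 196 and 188 in summer active bats (log2 difference -1.94, SE 0.20, adjusted p = 0.00887). CD79B, a signalling chain of the B cell receptor (117013901), was at 380 and 205 in winter, against 1074 and 916 in summer (-1.83, SE 0.29, adjusted p = 0.0412). Its partner CD79A, given above, did not pass (adjusted p = 0.161). Of 10 germinal centre genes, 2 fell (20%, against 0.894% of all genes). In 8 both winter libraries were below both summer libraries (80%, against 21.9% of all genes). Their median of -1.29 was -1.86 without summer active 1 and -0.72 without summer active 2. MEF2B, a transcription factor of germinal centre B cells (117038108), was at 6.02 and 6.99 in winter, against 34.9 and 71.4 in summer (-2.77, SE 0.42, adjusted p = 0.0353). GCSAM, a signalling adaptor gene of the same cells, was at 7.22 and 5.79, against 29.8 and 83.5 (-2.77, SE 0.47, adjusted p = 0.0479). Of these 4 calls, CD79B alone stayed without winter active 1, none stayed without winter active 2 (adjusted p = 0.13 to 0.359) and none without summer active 2 (0.0708 to 0.194).

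No plasma cell, T cell or cytotoxic gene was called. In limma the smallest adjusted p of the 3 lists were 0.23, 0.273 and 0.31. Plasma cell genes leaned the other way from the B cell genes, with both winter libraries above both summer libraries in 6 of 12 (50%, against 27.2% of all genes). Their median was 0.37, and 3 were higher at an unadjusted p under 0.05 (7.88% of all genes were). JCHAIN, which joins secreted antibody units, was at 1682 and 1265 in winter active bats, against 359 and 1065 in summer active bats (log2 difference 1.24, SE 0.48, adjusted p = 0.303). FKBP11 was at 73.8 and 40.2, against 26.1 and 31.2, and XBP1, the transcription factor of secretory cells, at 198 and 153, against 118 and 111. T cell genes had a median of -0.07 (19 tested, 2 lower at an unadjusted p under 0.05, against 6.96% of all genes). In 7 both winter libraries were below both summer libraries (36.8%, against 21.9% of all genes), and in 1 above (5.26%, against 27.2%). Their median was -0.45 without summer active 1 and 0.22 without winter active 2. CD5 was at 17.7 and 13.8 in winter, against 24.9 and 32.1 in summer (-0.82, adjusted p = 0.273). Of 19 natural killer and cytotoxic genes, 6 had both winter libraries below both summer libraries (31.6%, against 21.9% of all genes). At an unadjusted p under 0.05, 2 were lower, against 6.96% of all genes, and the list median was -0.48. The granzyme GZMM was at 24.9 and 9.92 in winter, against 27.4 and 41.8 in summer (-1.05, adjusted p = 0.31).

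Fewer genes rose, and they formed no single functional group among the lists: 3 of the 19 were list members and 16 were in none. STEAP2 and STEAP1, members of the STEAP family of membrane metal reductases that lie beside each other in the annotation, led the named rises. STEAP2 (117012462) was at 22.1 and 26.3 in winter active bats, against 7.20 and 3.41 in summer active bats (log2 difference 2.06, SE 0.32, adjusted p = 0.0401). STEAP1 (117012463) was at 45.5 and 25.7 in winter, against 7.69 and 7.27 in summer (2.06, SE 0.32, adjusted p = 0.0403). In both genes the lower winter library was well above the higher summer library. RHOJ, a small GTPase of endothelial cells, was at 5.42 and 6.84 in winter, against 1.41 and 0.424 in summer (1.94, adjusted p = 0.0468). GPR55, a lipid receptor (117025634), was at 15.6 and 13.3, against 4.35 and 2.58 (1.82, SE 0.27, adjusted p = 0.0342). PHACTR2, a phosphatase and actin regulator, was at 10.4 and 11.1, against 2.45 and 2.72 (1.72, adjusted p = 0.0203).

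Among the other named rises, EIF2AK2 (117032767) encodes PKR, the kinase that halts translation on double-stranded RNA. It was at 4.86 and 5.97 in winter active bats, against 1.29 and 0.952 in summer active bats (log2 difference 1.596, SE 0.26, adjusted p = 0.0447). NIBAN1, another regulator of translation under stress, was at 14.9 and 11.4, against 3.93 and 3.44 (1.58, adjusted p = 0.0282). ACER2, a ceramidase of the Golgi (117031938), was at 9.64 and 8.15 in winter, against 2.60 and 2.06 in summer (1.57, SE 0.25, adjusted p = 0.0406). The tryptophan pathway enzyme KYNU was at 4.50 and 5.59, against 0.991 and 1.13 (1.55, adjusted p = 0.0442). SKAP2, an adaptor of leukocyte adhesion (117012392), had the highest level among these genes, with 126 and 120 in winter, against 50.5 and 43.3 in summer (1.38, SE 0.20, adjusted p = 0.0286). The fucosyltransferase FUT11 was at 16.2 and 18.2, against 5.70 and 6.40 (1.37, adjusted p = 0.0342). FCHO2 of clathrin endocytosis, HYCC2, the lipid flippase ATP8B1 and the polarity protein PALS1 differed by 1.55, 1.54, 1.44 and 1.38 (adjusted p = 0.0353, 0.0342, 0.0479 and 0.0486). All 15 lost the call without winter active 1, without winter active 2 or without summer active 2 (adjusted p = 0.109 to 0.399 over the 3 fits), and 6 lost it without summer active 1.

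The 15 named rises lost their calls also when libraries of the other states were left out, 14 of them without either torpor library and 15 without either arousal library, where the smallest adjusted p was 0.0534 and the highest 0.0971. None turned direction in any of the settings tried, which in the fits without single libraries was fixed by the lack of overlap between states. The remaining 4 called rises are outside the naming rule and are given for completeness. CTNNA1, alpha-catenin of cell junctions, was at 96.1 and 94.3 in winter active bats, against 47.6 and 41.8 in summer active bats (log2 difference 1.08, adjusted p = 0.0442). LPCAT2, which makes platelet-activating factor, was at 30.8 and 29.6, against 13.1 and 11.2 (1.25, adjusted p = 0.0442). CLPSL2, a gene of the colipase family, was at 5.89 and 3.48 in winter, with 0 listed for either summer library (adjusted p = 0.0309). LOC117022872 was at 50.4 and 54.8 in winter, with summer levels of at most 0.0597 (adjusted p = 0.00973).

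**Figure D4:**
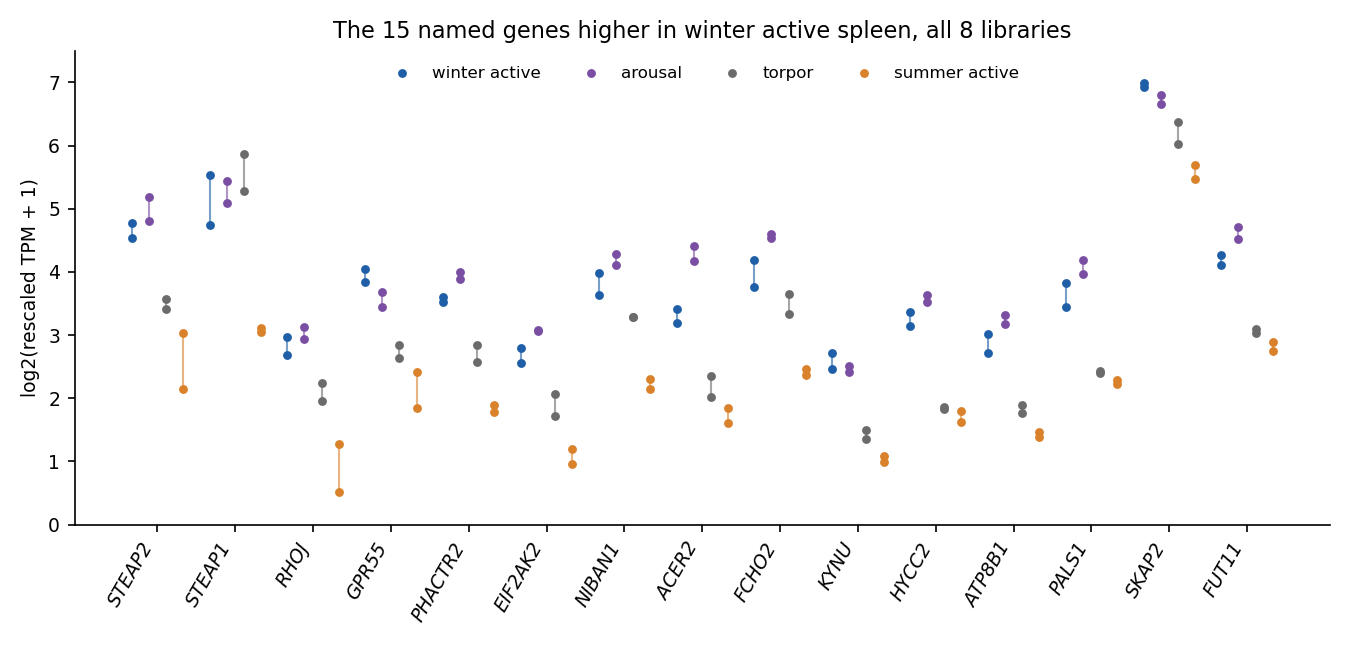
Level in each of the 8 libraries as log2(rescaled TPM + 1) for the 15 named genes higher in winter active spleen, with winter active in blue, arousal in purple, torpor in grey and summer active in orange, left to right within a gene. Winter active and arousal libraries lie close to each other in most genes, and torpor libraries lie between them and summer in several, as for SKAP2. In all 15 genes the 6 November libraries are above both summer libraries. In some genes torpor is barely above summer, as for HYCC2, with levels of 2.55 and 2.61 in torpor against 2.47 and 2.08 in summer.

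Beyond the STEAP genes, iron handling showed no common direction. Of 29 genes tested, 2 rose (0.14% of all genes did) and none fell. Both winter libraries were above both summer libraries in 9 (31%, against 27.2% of all genes) and below in 7 (24.1%, against 21.9%). The median was 0.37, which was 0.55 without summer active 1 and -0.05 without summer active 2. HMOX1, which opens heme to release iron, was at 1531 and 1183 in winter active bats, against 1408 and 393 in summer active bats (log2 difference 0.86, SE 0.69, adjusted p = 0.573), so the states overlapped. The iron exporter SLC40A1 was at 739 and 746, against 533 and 316 (0.85, SE 0.40, adjusted p = 0.37). Macrophage genes as a list had a median of 0.56, and none of 24 was called in limma (3 higher at an unadjusted p under 0.05, against 7.88% of all genes). The adhesion receptor VCAM1 was at 1621 and 1389.9 in winter, against 915 and 521 in summer (1.12, adjusted p = 0.176). TIMD4 was at 66.5 and 27.3, against 11.98 and 23.4, and the scavenger receptor MARCO at 238 and 158, against 139 and 38.6 (adjusted p = 0.285 and 0.319). The macrophage median depended on summer active 2: it was -0.07 without that library and 1.13 without summer active 1.

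Interferon-stimulated genes leaned upward in winter, mostly short of the threshold. Of 38 tested, 1 rose (EIF2AK2, above) and none fell, while 26 (68.4%) had both winter libraries above both summer libraries, against 27.2% of all genes. The median difference was 0.90, and at an unadjusted p under 0.05, 20 were higher and 2 lower (7.88% and 6.96% of all genes were). RSAD2, the antiviral enzyme viperin and one of the most strongly inducible members, had the opposite sign, with 9.25 and 1.69 in winter active bats and 29.1 and 56.2 in summer active bats (log2 difference -2.98, SE 0.61, adjusted p = 0.0912). Leaving out single libraries put the list median between 0.53 (without winter active 1) and 1.27 (without winter active 2). Of 28 pattern recognition genes none was called (8 higher and 1 lower at an unadjusted p under 0.05 in limma). In 18 both winter libraries were above both summer libraries (64.3%, against 27.2% of all genes). Their median was 0.51, and 0.24 without summer active 2. RIGI, a sensor of viral RNA, was at 13.996 and 15.1 in winter, against 6.05 and 4.45 in summer (1.33, SE 0.23, adjusted p = 0.057). STING1, the adaptor of DNA sensing, was at 21.9 and 18.1, against 6.92 and 8.38 (1.28, SE 0.25, adjusted p = 0.0822). TLR6, a partner of the lipopeptide receptor TLR2, was at 27.6 and 22.6, against 14.5 and 10.1 (0.98, adjusted p = 0.155).

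Inflammatory cytokine and NF-kB genes also had no call in limma (22 tested, median 0.58). At an unadjusted p under 0.05, 7 were higher, against 7.88% of all genes. In 13 both winter libraries were above both summer libraries (59.1%, against 27.2% of all genes). TNF was at 7.56 and 9.75 in winter active bats, against 0.834 and 2.28 in summer active bats (log2 difference 1.97, SE 0.49, adjusted p = 0.154). The anti-inflammatory cytokine IL10 was at 9.33 and 15.8, against 4.35 and 2.15 (1.68, adjusted p = 0.18), and the NF-kB feedback gene NFKBIZ at 86.5 and 103, against 55.5 and 24.2 (1.34, adjusted p = 0.176). Antigen presentation genes centred at 0.04 (22 tested, none called), and complement genes at 0.16 (20 tested, none called). CD59, which protects cells from complement lysis, was at 984 and 1002 in winter, against 577 and 320 in summer (1.20, adjusted p = 0.171). Immediate early genes had a median of 0.46, with both winter libraries above both summer libraries in 14 of 25 (56%, against 27.2% of all genes). In limma none was called and 9 were higher at an unadjusted p under 0.05, against 7.88% of all genes. JUN was at 28.5 and 39.4, against 14.2 and 10.7 (1.37, adjusted p = 0.111), and MYC at 81.2 and 70.5, against 44.4 and 43.0 (0.78, adjusted p = 0.109). FOS was at 2.15 and 4.21, against 1.36 and 2.10 (0.58, adjusted p = 0.457).

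Stromal and vessel genes had no call. Of 12 smooth muscle genes, all 12 had a difference above 0 (53.9% of all genes did). In 10 both winter libraries were above both summer libraries (83.3%, against 27.2% of all genes). At an unadjusted p under 0.05 in limma 8 were higher, against 7.88% of all genes. The list median was 0.90, between 0.71 and 1.06 without single libraries. MYH11, the smooth muscle myosin, was at 44.1 and 66.7 in winter active bats, against 29.8 and 31.1 in summer active bats (log2 difference 0.81, adjusted p = 0.19). The contractile regulator CNN1 was at 5.74 and 13.9, against 2.17 and 3.54 (1.40, adjusted p = 0.221). Smooth muscle is found in the splenic capsule and in the stomach wall, and GKN1 of the stomach stood at 666 in winter active 2, the library with the higher MYH11 and CNN1. The part of stomach wall in these values was not tested, and without winter active 2 the smooth muscle median was 0.71. EMCN, a mucin of endothelium, was at 8.64 and 6.73 in winter, against 2.52 and 2.34 in summer (1.33, SE 0.25, adjusted p = 0.0687). Endothelial genes as a list had a median of 0.45 (16 tested), which was -0.11 without summer active 2, and platelet genes one of 0.63, which was 0.03 without summer active 2.

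Of 28 antioxidant genes, 2 fell (7.14%), and 1 of 27 hypoxia response genes fell (3.7%), against 0.894% of all genes. The medians of both lists were near 0 (-0.16 and 0.27). GPX1, a selenium-dependent peroxidase (117036661), was at 1030 and 783 in winter active bats, against 3624 and 4064 in summer active bats (log2 difference -2.09, SE 0.30, adjusted p = 0.0282). The other called antioxidant gene was PRDX2, given above among the erythroid genes. BNIP3L, a receptor for the removal of mitochondria in maturing red cells (117038122), was at 49.0 and 55.6 in winter, against 154 and 204 in summer (-1.74, SE 0.22, adjusted p = 0.0201). GPX1, PRDX2 and BNIP3L all have known roles in red cells, and the 4 erythroid lists differed in the same libraries and direction; their part in these 3 falls was not tested. GPX1 and BNIP3L lost the call without winter active 1, winter active 2 or summer active 2 (adjusted p = 0.112 to 0.272). HIF1A, the oxygen-regulated transcription factor, was at 35.9 and 51.5 in winter, against 31.4 and 30.4 in summer (0.46, adjusted p = 0.439).

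Fuel and clock genes showed no call. PDK4, which turns pyruvate away from oxidation and is induced by fasting and glucocorticoids, was at 103 and 119 in winter active bats, against 32.5 and 49.7 in summer active bats (log2 difference 1.44, SE 0.29, adjusted p = 0.0826). The glucocorticoid targets FKBP5 and TSC22D3 overlapped between states, with 170 and 153 in winter against 185 and 112 in summer for FKBP5 (0.16, adjusted p = 0.787), and 306 and 235 against 249 and 263 for TSC22D3 (0.07, adjusted p = 0.942). The list of glucocorticoid-induced genes had a median of 0.16 (23 tested). Of 22 clock genes, NR1D1 had the largest difference, with 22.6 and 20.5 in winter, against 51.4 and 56.8 in summer (-1.29, SE 0.30, adjusted p = 0.132). PER1 was at 21.2 and 13.1, against 15.97 and 16.7 (0.03, adjusted p = 0.964). The hours of sampling are not given in the labels.

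No cold or stress gene of the lists was called. CIRBP, a cold-induced RNA binding protein, was at 299.9 and 231 in winter active bats, against 440 and 369 in summer active bats (log2 difference -0.61, SE 0.22, adjusted p = 0.278). RBM3, its relative, was at 470 and 459, against 553 and 890 (-0.60, adjusted p = 0.385). None of the 13 members of this list was called (3 lower at an unadjusted p under 0.05 in limma, against 6.96% of all genes, median -0.29). HSPA8 was at 700.0 and 728, against 483 and 599.7 (0.41, adjusted p = 0.516), and HSPA5, the chaperone of the endoplasmic reticulum, at 288 and 308, against 227 and 247 (0.33, adjusted p = 0.583). Among 24 unfolded protein response genes, 14 had both winter libraries above both summer libraries (58.3%, against 27.2% of all genes). At an unadjusted p under 0.05, 5 were higher, against 7.88% of all genes, and the list median was 0.28. SEL1L, which exports misfolded proteins from the endoplasmic reticulum, was at 18.8 and 26.4, against 5.72 and 7.28 (1.64, SE 0.34, adjusted p = 0.0929). ASNS, the asparagine synthetase of the integrated stress response, was at 9.21 and 11.2, against 21.6 and 42.1 (-1.49, SE 0.35, adjusted p = 0.132).

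Genes of the general machinery had medians slightly below 0. Ribosomal protein genes had a median of -0.28 (75 tested), respiratory chain genes one of -0.22 (39 tested) and proteasome genes one of -0.18 (33 tested), with no call in limma. Both winter libraries were below both summer libraries in 21 (28%), 23 (59%) and 17 (51.5%) of these, against 21.9% of all genes. They were above in 3 (4%), 1 (2.56%) and 2 (6.06%), against 27.2% of all genes. At an unadjusted p under 0.05, 1 ribosomal gene was higher and 1 lower, 3 respiratory chain genes were lower and 1 proteasome gene was higher. Of all genes 7.88% were higher and 6.96% lower at that level. NDUFA2, a subunit of complex I, was at 186 and 174 in winter active bats, against 238 and 242 in summer active bats (log2 difference -0.42, SE 0.16, adjusted p = 0.305). With each column rescaled to a total of 1000000, which moved the median of all genes to 0.553, these 3 medians became 0.29, 0.34 and 0.39. Relative to the median of all genes under that scaling they were -0.259, -0.212 and -0.163, those of the cold-responsive and antioxidant genes -0.284 and -0.144, and those of the erythroid and mitosis genes -2.35 and -2.05.

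**Figure D5:**
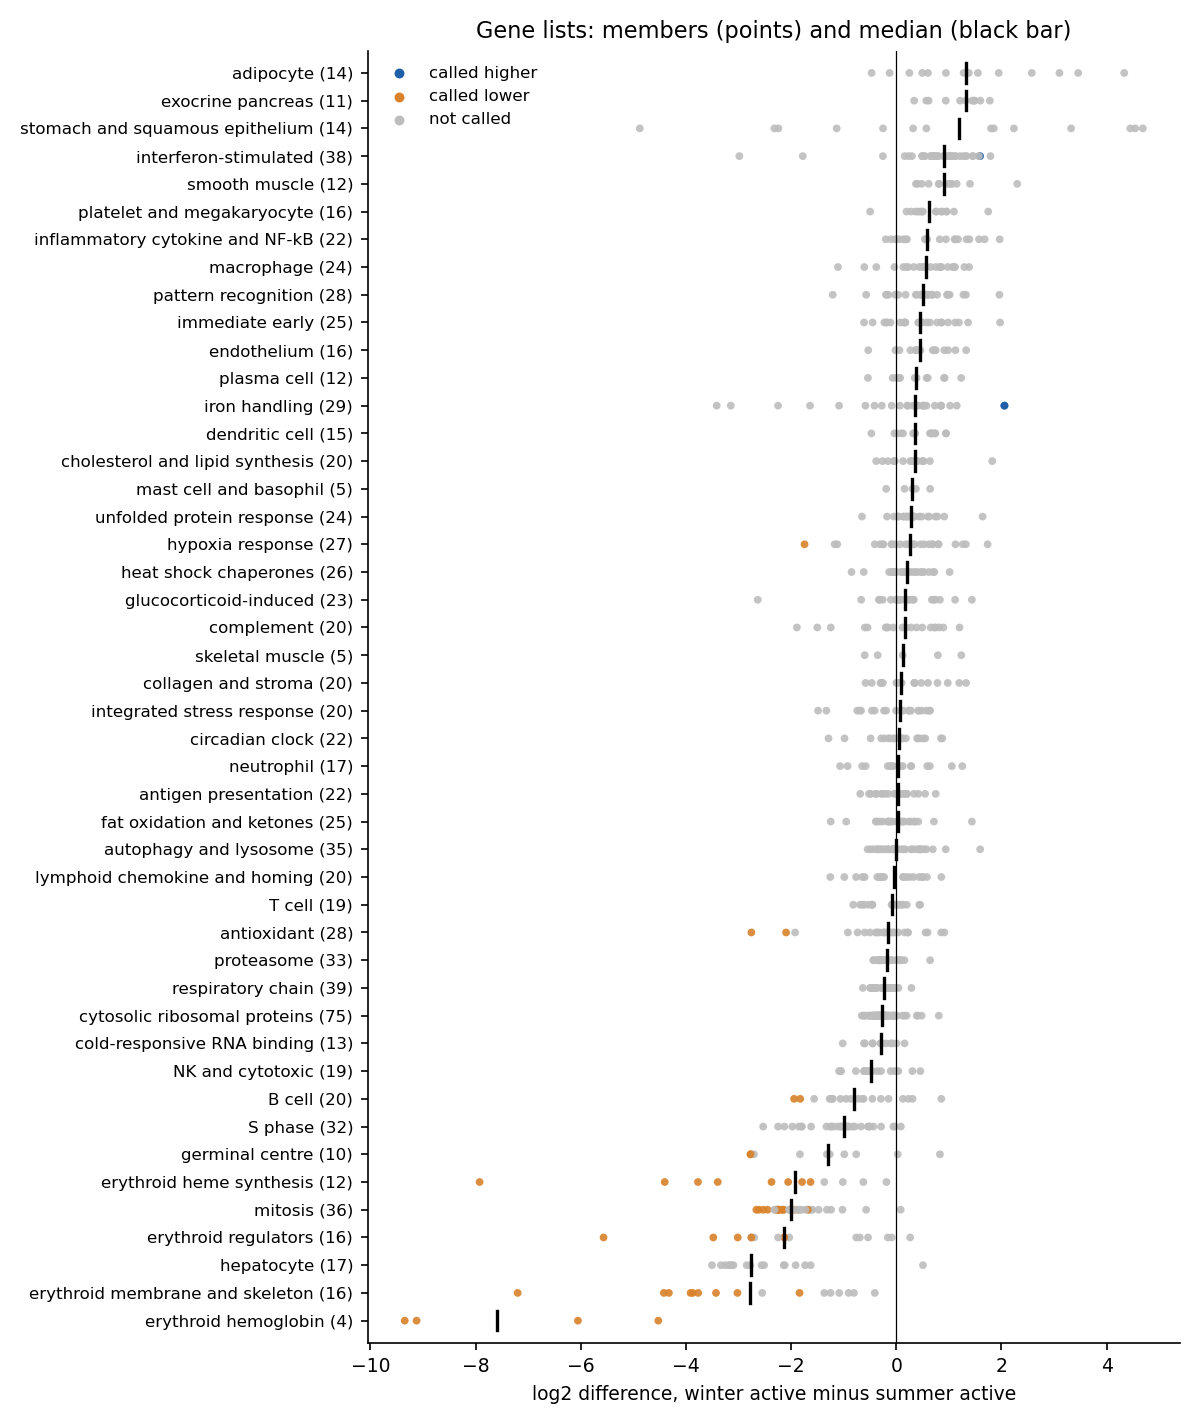
Log2 difference (winter active minus summer active, horizontal axis) of each tested member of the gene lists, 1 row per list with the number of members tested, ordered by the list median (black bar); blue and orange points are genes called higher and lower. The erythroid lists, mitosis and the uncalled hepatocyte list lie furthest to the left, with medians at or below -1.92. Most other lists centre within 1 unit of 0.

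Liver and stomach transcripts differed between libraries of 1 state. Hepatocyte genes summed to 237 and 152 in winter active spleens, against 3401 and 104 in summer active spleens, and their list median of -2.77 became 0.0037 without summer active 1. Stomach and squamous genes summed to 73.0 and 2262, against 135 and 1912, so that 1 library of each state was high. Adipocyte genes had both winter libraries above both summer libraries in 9 of 14 (64.3%, against 27.2% of all genes). At an unadjusted p under 0.05, 4 were higher, against 7.88% of all genes. ADIPOQ, the adipocyte hormone adiponectin, was at 12.4 and 81.4 in winter, against 1.04 and 0.327 in summer (log2 difference 4.34, SE 1.07, adjusted p = 0.149). PLIN1, which coats fat droplets, was at 5.33 and 25.5, against 0.308 and 0.0584 (3.46, SE 0.71, adjusted p = 0.092). Exocrine pancreas genes had no call either, with both winter libraries above both summer libraries in 9 of 11 (81.8%, against 27.2% of all genes) and a median of 1.32, which was 0.35 without winter active 2. The pancreatic protease CTRC was at 4.36 and 17.2, against 4.66 and 2.19 (1.21, adjusted p = 0.661). Neutrophil genes had a median of 0.04 (17 tested, none called), and S100A8 was at 346 and 273 in winter, against 523 and 652 in summer (-0.92, adjusted p = 0.677).

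Values of the other November states place the season difference beside torpor and early arousal. These comparisons share the summer libraries, so the values stand side by side with no test of likeness. The 4 erythroid lists summed to 1434 and 1247 in winter active, 1313 and 1688 in torpor and 1002 and 879 in arousal spleens, against 8753 and 12985 in summer. Mitosis genes summed to 237 and 212 in winter active, 371 and 350 in torpor and 253 and 188 in arousal spleens, against 758 and 1394 in summer. Both sums were thus below their summer values in all 6 November libraries. The regulator list made up 918 and 783 of the erythroid sums in winter active spleens. The list of globins and their chaperone differed between November states. It summed to 24.4 and 1.59 in winter active, 91.0 and 49.1 in torpor and 0.633 and 1.93 in arousal spleens, against 4374.5 and 6792 in summer. VPREB3 was at 51.1 and 47.5 in winter active and 23.4 and 23.8 in torpor spleens, and both are below its summer levels of 196 and 188. ACER2 was at 9.64 and 8.15 in winter active, 17.0 and 20.3 in arousal and 4.13 and 3.07 in torpor spleens. Against torpor directly, no gene was called in winter active spleen (limma, smallest adjusted p = 0.2203), while 1231 genes (9.09%) were higher and 556 (4.11%) lower at an unadjusted p under 0.05, and with no filter on low levels 6 genes were called.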

How the data were processed

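Whole-spleen RNA of wild female bats was sequenced in 4 states with 2 libraries each. The authors deposited 1 gene table; per the submitters' processing notes it comes from kallisto 0.46.2 and sleuth 0.30.0. Its values are a signal unit, TPM rescaled between libraries by the authors (column totals 745098.1 to 1331820), and hold no read counts, so the depth of each library is unknown. No source used here names the genome build. All 19652 identifiers matched the RefSeq annotation mRhiFer1_v1.p, used for names and neighbours only, and 3335 genes carry a locus number only.

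Genes averaging 1 or more over the 8 libraries were tested by limma 3.58.1 (R 4.3.3; lmFit, contrasts and trended eBayes) on the log2(value + 1) scale, in 1 fit of 4 state means with 4 residual and 3.29 prior degrees of freedom. Fitting all states lets them share 1 estimate of the spread. An exact permutation test of 2 against 2 libraries cannot give a two-sided p below 0.333. Whether each biological replicate is 1 bat is not stated, and p-values measure only the spread between these libraries.

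Named genes were the 15 largest rises and 15 largest falls among called genes with no overlap between states, a higher state averaging 5 or more and a symbol, plus called members of the 47 gene lists or else members with the smallest p, spleen markers and a set of fixed genes. The groups compared, the lists and the named genes were chosen with earlier results of these data known. Lists were described by counts and medians with no set test. Alternatives changed the pseudocount, filter, scaling, spread estimate, replicate block, libraries fitted and genes kept, and left out each library in turn. Some list members are not reported here. Sequences were not used here.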

Additional observations from a re-analysis of the deposited data

How the results depend on the processing

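No gene called in winter active against summer active spleen changed direction in any of the 18 other settings. Most of these settings could not turn a direction. Both winter libraries of each called gene lay on 1 side of both summer libraries, so leaving out 1 library could not reverse it. Only the changes of scaling could have turned one. As reported there were 140 calls, 19 higher and 121 lower. Counts within 1.5 times of these came from a pseudocount of 0.1, a stricter filter (mean 5 or more), median-of-ratios and quantile scaling and a robust spread. With no filter on low levels there were 57 calls, 7 higher and 50 lower, over 19652 genes. The 4 compared libraries alone gave 32, 2 higher and 30 lower. Without the members of the erythroid and other-organ lists there were 87, 12 higher and 75 lower. Leaving out 1 library each gave 15 to 374 calls, 0 to 91 higher and 15 to 283 lower, with the spread of the remaining single library taken from the other states. With columns rescaled to 1000000 there were 779 calls, 662 higher (85% of calls, against 13.6%) and 117 lower. Against torpor, 0 genes were called, and 6 with no filter.

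Whether replicate numbers pair the libraries was not tested. Deviations of same-numbered libraries correlated at 0.226 between winter and summer active, and from -0.191 to 0.322 over the 6 pairs of states. A replicate block gave 103 calls, 7 higher and 96 lower, and kept 7 of the 15 mitosis and 23 of the 27 erythroid calls.

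Uncalled genes changed direction in some fits. Without single libraries ALB ranged from -5.46 to 1.18, FKBP5 from -0.20 to 0.53 and HMOX1 from -0.065 to 1.77. KRT4 ranged from -10.01 to 0.25, PER1 from -0.29 to 0.36 and TSC22D3 from -0.12 to 0.26. GKN1 ranged from 0 (without winter active 2) to 9.38 and so did not turn. PER1 was -0.011 with median-of-ratios and -0.031 with quantile scaling, and NDUFA2 was 0.15 after rescaling to 1000000, below the 0.553 to which that scaling moved the median of all genes. The causes were not tested. Read depth is unknown, so no depth limit could be given.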
